A study of Homo sapiens with 7 samples.

Results

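The change that 2 palbociclib-resistant clones of T47D cells had in common was described gene by gene. A gene belonged to it when clone 2 and clone 4 each differed from the parental cells in the same direction, in edgeR's quasi-likelihood test at an adjusted p below 0.05 over all genes tested. This held for 3789 of 17502 genes tested, of which 1918 were higher and 1871 lower in both clones. T47D is a human breast cancer line that expresses the estrogen receptor, and palbociclib inhibits the kinases CDK4 and CDK6. RNA was measured in 7 libraries: 2 of resistant clone 2, 2 of resistant clone 4 and 3 of parental, palbociclib-sensitive cells. Resistant cells had been selected over 6 months in palbociclib that was raised stepwise, per the labels, with 1 uM at the start and 5 uM at the end, and the experiments were run without the drug unless stated otherwise. All groups were grown in alpha MEM with serum, insulin, EGF and hydrocortisone. Each resistant line is a single clone, so selection, time in culture and the founding cell of a clone cannot be told apart. The labels call the libraries biological replicates without saying how cultures were kept apart, so that p-values here cover only the spread among the libraries at hand. Both clones were set against the same 3 parental libraries, so their differences from parental cells are not independent.

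CDK4 and CDK6, bound to D-type cyclins, phosphorylate the retinoblastoma protein RB1 and so release E2F transcription factors, which switch on genes for DNA replication. Type I interferon acts through the kinases JAK1 and TYK2 to form a transcription complex that includes STAT2 and IRF9, which binds a DNA element in promoters of antiviral genes. The same genes can be driven by unphosphorylated forms of these factors, and NF-kB and STAT3 are further routes by which cytokines change transcription in breast cancer cells.

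Many of the genes that rose furthest in both clones belonged to the list of interferon-stimulated genes, and promoters of 5 of them are shown. These 5 were chosen because they hold the core sequence given below, so what they have in common is fixed by the choice. Of other such genes looked up, XAF1, OAS1, OAS2, IFIT2 and OASL gave no stretch with the core before the start. Each line holds 60 bases from the promoter window of RefSeq (build GRCh38.p14), 5′ to 3′ on the strand of the gene, and capitals mark the core GAAANNGAAA, or TTTCNNTTTC where it lies on the opposite strand. In the ISG15 sequence, a pair of cores overlap.
ISG15, chr1:1013365-1013424, plus strand: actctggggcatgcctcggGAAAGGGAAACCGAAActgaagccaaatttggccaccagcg
IFI27, chr14:94110616-94110675, plus strand: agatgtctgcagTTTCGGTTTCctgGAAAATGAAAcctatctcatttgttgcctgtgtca
IFI6, chr1:27672251-27672310, minus strand: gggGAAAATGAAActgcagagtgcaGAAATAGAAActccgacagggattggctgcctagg
IFIT1, chr10:89392495-89392554, plus strand: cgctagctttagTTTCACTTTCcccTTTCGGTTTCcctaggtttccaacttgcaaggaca
MX1, chr21:41431829-41431888, plus strand: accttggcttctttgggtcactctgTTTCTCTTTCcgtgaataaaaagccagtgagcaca

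The core was searched on both strands in windows of 250 bases before to 50 bases after each gene's start, and 10615 of the 17502 genes tested had a window. Of these, 413 (3.89%) held the core, against 1195 of all 27305 genes in the table (4.38%). Counted by window, the share was 2.89% of the 15427 windows of genes tested, against 3.57% of all 35116 windows. Among genes higher in both clones, 96 of 1211 (7.93%) held it. Among genes lower in both clones, 41 of 1294 (3.17%) did. Of the interferon-stimulated genes that were higher in both clones, 29 of 40 (72.5%) held the core. Over all tested members of that list with a window, whatever their change, 31 of 43 (72.1%) did, so this share belongs to the list. Among genes higher in both clones outside that list, the share was 67 of 1171 (5.72%). A match is a description of these letters and not evidence that a factor binds there.

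Averaged with equal weight for each clone, the clones differed from parental cells at 7847 genes. Of all genes tested, 3839 (21.9%) were called higher and 4008 (22.9%) lower on this mean. The genes called in each clone in the same direction were fewer, 1918 higher (11.0% of genes tested) and 1871 lower (10.7%), and all 3789 were also called on the mean. Of the remaining mean calls, 3591 had the same fitted sign in both clones but missed the threshold in at least 1 of them, and 467 had opposite signs. Over all genes tested, 452 were called in opposite directions in the clones. The shared genes made up 50.9% of the 7443 genes called in clone 2 and 48.8% of the 7771 called in clone 4. Scaling by library totals alone moved the mean calls to 4598 higher and 3192 lower and the shared genes to 2323 higher and 1375 lower, so the balance between directions depends on the scaling, while the median log2 difference over all genes moved only to 0.0761.

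Among the genes called, shared increases were larger than shared decreases. The median log2 fold change on the mean of both clones was 1.09 among the genes higher and −0.73 among the genes lower, beside 0.0026 over all genes tested. At least a 2-fold change in each clone was seen for 851 higher and 382 lower genes, a 4-fold change for 304 and 100, and a 16-fold change for 64 and 22. Every clone library lay above every parental library for 1906 of the 1918 higher genes, and below for 1847 of the 1871 lower genes, a separation that the selection of the genes largely fixes. Clone 2 and clone 4 differed from each other at 6396 genes (36.5% of genes tested). Of the 3789 shared genes, 1049 (27.7%) differed in size between the clones. Among those higher, 293 had moved further in clone 2 and 239 further in clone 4. Among those lower, 170 had moved further in clone 2 and 347 further in clone 4.

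**Figure D1:**
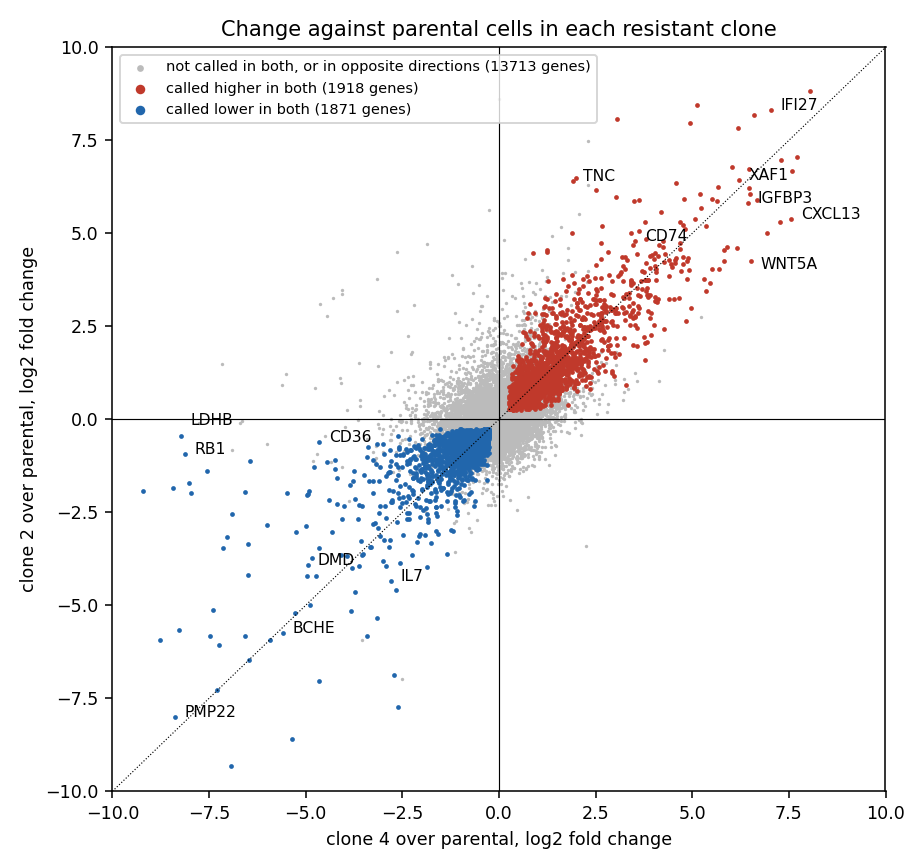
Log2 fold change over parental cells of every gene tested, clone 4 on the horizontal and clone 2 on the vertical axis. The 1918 genes higher in both clones are red, the 1871 lower in both are blue and the other 13713 are grey, 8 genes lie outside the plotted range of −10 to 10, and points on the dotted line changed equally in both clones.

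Interferon-stimulated antiviral genes rose almost as a block. Of 56 tested, 51 were higher in both clones and 0 were lower, with a median log2 fold change of 2.49 on the mean, beside 0.0026 over all genes. This share was 91.1%, and over all genes tested 11.0% were higher and 10.7% lower in both clones, shares beside which each list below is to be read. The lists and their members were chosen with earlier results of these data known, so such shares describe the lists and are no test of them. The 5 members outside the shared set were MX2, HERC5, EPSTI1, TRIM22 and TRIM25, of which the restriction factors MX2 and TRIM22 were called in clone 4 only and clone 2 only. Leaving out any single library left 49 to 52 members higher.

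MX1 and IFITM3 are restriction factors, which block virus entry or replication. MX1, a GTPase that traps viral nucleocapsids, had 462 and 449 CPM in clone 2 and 559 and 374 CPM in clone 4, against 36.1, 27.1 and 20.2 CPM in parental cells. IFITM3, a membrane protein that blocks fusion of enveloped viruses, had 67.9 and 63.8 CPM in clone 2 and 55.9 and 52.5 CPM in clone 4, against 5.45, 6.11 and 3.44 CPM in parental cells. Every clone library exceeded every parental library for both genes, by a mean log2 fold change of 4.06 ± 0.21 for MX1 (SE; edgeR adjusted p = 1.18e-07) and 3.57 ± 0.15 for IFITM3 (6.32e-10).

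OAS1, OAS2 and OASL belong to the family of RNA sensors that make the messenger activating RNase L, although OASL itself lacks that activity. OAS1 had 100.3 and 98.5 CPM in clone 2 and 143 and 93.2 CPM in clone 4, against 5.53, 5.75 and 3.81 CPM in parental cells. The groups were far apart, with a mean log2 fold change of 4.42 ± 0.18 (edgeR adjusted p = 3.7e-10). OAS2 and OASL rose by 4.26 ± 0.41 and 3.63 ± 0.28 on the same scale.

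IFIT1, which binds viral RNA with foreign caps, had 202 and 201 CPM in clone 2 and 246 and 145 CPM in clone 4, against 11.6, 7.77 and 3.59 CPM in parental cells. The rise was 4.71 ± 0.41 on the log2 scale (edgeR adjusted p = 0.000297), with more spread in clone 4 and in parental cells than between the clone 2 libraries. The related IFIT2 and IFIT3 rose by 4.19 ± 0.25 and 4.97 ± 0.39. In all 3 IFIT genes the second clone 4 library was the lowest of the 4 clone libraries and still lay above all parental libraries.

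ISG15, a ubiquitin-like modifier, had 161 and 149 CPM in clone 2 and 235 and 237 CPM in clone 4, against 8.75, 8.66 and 6.96 CPM in parental cells. It rose by 4.56 ± 0.11 on the log2 scale (edgeR adjusted p = 3.88e-12), and by more in clone 4. IFI27, a mitochondrial interferon-induced protein gene on chromosome 14, showed the opposite order, with 1056 and 977 CPM in clone 2 and 434 and 399 CPM in clone 4, against 3.55, 3.86 and 2.05 CPM in parental cells. Both orders were called between the clones, with a clone 2 over clone 4 log2 difference of −0.61 for ISG15 and 1.29 for IFI27. Of the 51 shared members, 15 differed in size between the clones, 8 further up in clone 2 and 7 in clone 4.

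IFI6 and XAF1, regulators of cell death induced by interferon, rose to a like extent in both clones. IFI6 had 531 and 523 CPM in clone 2 and 632 and 545 CPM in clone 4, against 19, 14.2 and 9.82 CPM in parental cells. XAF1 had 52.3 and 51 CPM in clone 2 and 49.8 and 38.4 CPM in clone 4, against 0.743, 0.830 and 0.147 CPM in parental cells. Neither difference between the clones passed the test, at log2 values of −0.16 for IFI6 and 0.22 for XAF1.

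IRF9 and STAT2, which work in the transcription complex that interferon assembles, were higher in both clones. IRF9, its DNA-binding subunit and a gene on chromosome 14, had 8.87 and 6.49 CPM in clone 2 and 6.94 and 8.85 CPM in clone 4, against 0.495, 0.771 and 0.366 CPM in parental cells. STAT2 had 109 and 112 CPM in clone 2 and 109.7 and 94.6 CPM in clone 4, against 66.3, 69.5 and 58.0 CPM in parental cells. The groups did not overlap for either gene, and the mean log2 fold changes were 3.76 ± 0.27 for IRF9 and 0.72 ± 0.09 for STAT2 (edgeR adjusted p of 1.29e-07 and 3.31e-05).

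Of 15 genes of nucleic acid sensing, which lie upstream of interferon, 4 were higher in both clones (26.7%, beside 11.0% over all genes tested) and 0 lower, with a median log2 fold change of 0.35. Another 8 were called in 1 clone only and 1 in opposite directions, and on the mean 8 were called higher and 2 lower. The 4 shared genes were TMEM173, ADAR, ZC3HAV1 and TLR3, the last of which lost its call without the first library of either clone. TMEM173, which encodes the cytosolic DNA response adaptor STING, had 4.1 and 4.25 CPM in clone 2 and 2.27 and 2.34 CPM in clone 4, against 0.495, 0.593 and 0.513 CPM in parental cells. ADAR, which edits double-stranded RNA, rose by 0.88 ± 0.10 on the log2 scale.

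**Figure D2:**
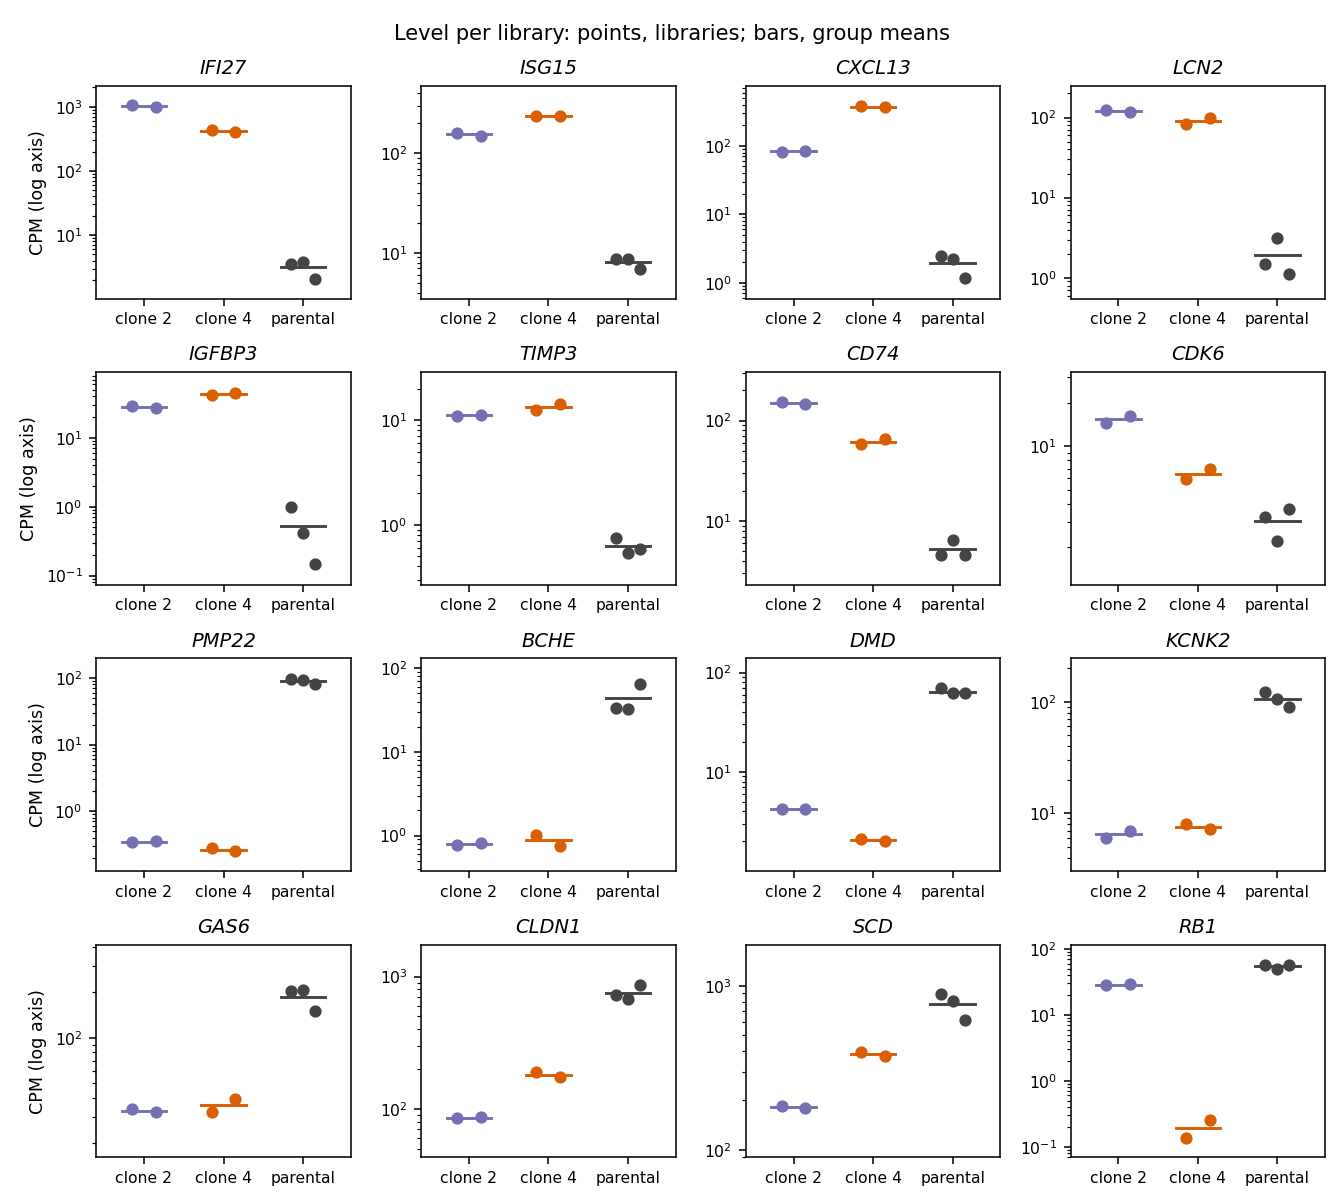
TMM-scaled CPM on a log axis of 16 genes in each library, with clone 2, clone 4 and parental cells from left to right, points for libraries and bars for group means. For ISG15, the 4 clone libraries lie between 149 and 237 CPM and the parental libraries between 6.96 and 8.75 CPM, and for DMD the order is turned round.

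Genes of antigen presentation rose with them. Of 19 genes of MHC class I presentation, 14 were higher and 1, CALR, was lower in both clones, with a median log2 fold change of 0.95. The lower call of CALR was lost without the second clone 4 library or the second parental library. Among those higher were the heavy chains HLA-B, HLA-C and HLA-F, the light chain B2M, the peptide transporters TAP1 and TAP2, the transactivator NLRC5, the peptide-editing relative TAPBPL, the trimming enzyme ERAP2, and the immunoproteasome genes PSMB8, PSMB9, PSME1 and PSME2. Leaving out single libraries left 10 to 14 of the list higher.

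HLA-B had 1369 and 1333 CPM in clone 2 and 1078 and 969 CPM in clone 4, against 557, 565 and 559 CPM in parental cells, and was among the 10 largest gains in CPM. It rose by 1.07 ± 0.08 on the log2 scale (edgeR adjusted p = 2.77e-07), and further in clone 2. HLA-F had 65.3 and 59.2 CPM in clone 2 and 51.3 and 50.5 CPM in clone 4, against 17.7, 15.5 and 16.1 CPM in parental cells. No clone library of these genes reached down to the parental range. HLA genes are near-identical to one another, so the counting may have split their reads.

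Class II genes, which normally mark professional antigen-presenting cells and are inducible by interferon gamma in other cells, were higher in both clones for 9 of 12 tested, with 0 lower and a median log2 fold change of 1.89. Among the 9 was CIITA, their master regulator. CD74, the invariant chain that guides class II molecules, had 152 and 146 CPM in clone 2 and 58.2 and 64.9 CPM in clone 4, against 4.62, 6.52 and 4.62 CPM in parental cells. HLA-DRA had 28.6 and 30.9 CPM in clone 2 and 8.24 and 9.10 CPM in clone 4, against 0.248, 0.356 and 0.440 CPM in parental cells. The clone libraries lay far above the parental ones in both genes, and clone 2 exceeded clone 4 by a log2 difference of 1.27 for CD74 and 1.78 for HLA-DRA. HLA-DPB1 had only 3 counts over the parental libraries, and the ratio to them was 44.6 in clone 2 (exact 95% interval 14.8 to 220.3) and 15.5 in clone 4 (4.81 to 79.7).

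Because class II genes also mark leukocytes, 20 leukocyte markers were read in the same libraries. Only 5 passed the filter on low counts, and 1, the integrin gene ITGAM, was higher in both clones. Their summed level was 13.8 to 15.2 CPM in clone 2 and 11.0 to 12.7 CPM in clone 4, against 6.35 to 7.65 CPM in parental cells, and CD2, TYROBP and AIF1 were at 0 in all 7 libraries. ITGAM had a total of 2 counts in the parental libraries, giving ratios of 78.8 in clone 2 (21.3 to 659) and 43.4 in clone 4 (11.4 to 367).

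Of 25 genes of NF-kB and TNF signalling, 15 were higher and 0 lower in both clones, at a median log2 fold change of 0.62. Leaving out single libraries left 12 to 15 higher. The 15 included the subunits NFKB2 and RELB, the inhibitors NFKBIA, NFKBIZ and TNFAIP3, the cytokines TNF and LTB, and the receptors CD40 and TNFRSF1B. The inhibitors NFKBIB and NFKBIE were called in clone 4 only. NFKBIA, TNFAIP2 and TRAF3 lie on chromosome 14, where many genes were higher.

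BIRC3, a ubiquitin ligase that restrains cell death downstream of TNF, had 78.0 and 77.1 CPM in clone 2 and 69.0 and 56.5 CPM in clone 4, against 4.29, 3.20 and 4.32 CPM in parental cells. TNFAIP3, the deubiquitinase A20 that ends NF-kB signalling, had 13.4 and 14.1 CPM in clone 2 and 13.1 and 15.6 CPM in clone 4, against 1.49, 2.25 and 1.54 CPM in parental cells. ICAM1, an adhesion molecule for leukocytes, had 30.9 and 29.6 CPM in clone 2 and 27.5 and 23.2 CPM in clone 4, against 4.79, 4.33 and 2.42 CPM in parental cells. The groups did not overlap in any of the 3, and the log2 fold changes were 4.16 ± 0.14, 2.96 ± 0.18 and 2.85 ± 0.18 (edgeR adjusted p of 5.28e-11, 2.64e-08 and 3.06e-08).

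Secreted mediators were split by direction. Of 16 chemokine and cytokine genes tested, 10 were higher and 3 lower in both clones, with a median log2 fold change of 2.03. The members that rose included CXCL10, CCL20, CXCL8 and LIF, and those that fell were CXCL12, IL7 and IL18. CXCL13, a chemokine outside this list that attracts B cells and follicular helper T cells, had 82.3 and 84.3 CPM in clone 2 and 377 and 367 CPM in clone 4, against 2.48, 2.25 and 1.17 CPM in parental cells. LIF, a cytokine that signals through STAT3, had 7.59 and 6.37 CPM in clone 2 and 3.57 and 3.59 CPM in clone 4, against 0.165, 0.475 and 0.366 CPM in parental cells. CXCL10 had 1 count over the parental libraries, and its ratio was 69.9 in clone 2 (11.9 to 2818) and 51.4 in clone 4 (8.59 to 2093).

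CXCL12, the ligand of CXCR4 and a gene that estrogen induces, fell. It had 82.8 and 93.7 CPM in clone 2 and 62.4 and 47.8 CPM in clone 4, against 159, 146 and 118 CPM in parental cells, a mean log2 fold change of −1.01 ± 0.12 (edgeR adjusted p = 1.05e-05). IL7, which maintains lymphocytes, had 1.37 and 2.06 CPM in clone 2 and 6.25 and 4.01 CPM in clone 4, against 35.4, 34.5 and 38.8 CPM in parental cells. The groups did not overlap for either gene. IL18 had a mean log2 fold change of −0.62 ± 0.13 and lost its shared call without the second library of either clone.

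LCN2 and SAA1, a pair of secreted defence genes, belonged to none of the lists used here. LCN2, lipocalin 2, which binds bacterial siderophores, had 124 and 118 CPM in clone 2 and 83.9 and 97.7 CPM in clone 4, against 1.49, 3.14 and 1.10 CPM in parental cells. SAA1, serum amyloid A, had 39.6 and 37.2 CPM in clone 2 and 145 and 152 CPM in clone 4, against 0.825, 1.54 and 0.366 CPM in parental cells. Each clone library exceeded each parental library many times over, with log2 fold changes of 5.71 ± 0.21 for LCN2 and 6.29 ± 0.21 for SAA1 (edgeR adjusted p of 1.46e-10 and 6.81e-11). SAA1 was higher in clone 4 than in clone 2, and the difference in LCN2 between the clones did not pass the test.

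The study's title names STAT3. Of 26 genes of the JAK-STAT3 pathway, 12 were higher and 1, BCL6, was lower in both clones, with a median log2 fold change of 0.62. Without the second clone 2 library, 7 were higher. STAT3 itself had 142 and 143 CPM in clone 2 and 107 and 98.3 CPM in clone 4, against 95.2, 87.3 and 93.0 CPM in parental cells. Clone 4 thus lay just above the parental range, and STAT3 was called in clone 2 (0.63 ± 0.09 on the log2 scale) but not in clone 4 (0.16 ± 0.10).

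The feedback inhibitors SOCS1 and SOCS3 were among the 12, while CISH was called in clone 2 only and PIAS3 in clone 4 only. SOCS3 had 5.63 and 5.43 CPM in clone 2 and 12.6 and 12.4 CPM in clone 4, against 2.31, 2.91 and 2.13 CPM in parental cells. SOCS1 rose by 3.25 ± 0.39 on the log2 scale. The related transcription factor STAT5A, which relays prolactin signals in breast epithelium, had 8.87 and 8.97 CPM in clone 2 and 9 and 8.51 CPM in clone 4, against 1.98, 1.78 and 1.10 CPM in parental cells. That rise, 2.44 ± 0.20 (edgeR adjusted p = 4.04e-07), was nearly the same in both clones.

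Immediate early genes, which answer growth factor and stress signals within minutes, were higher in both clones for 11 of 25, with 0 lower and a median log2 fold change of 1.03. The shared share was 44%, beside 11.0% over all genes tested. On the mean of both clones 21 of the 25 were called higher, beside 21.9% of all genes tested. Clone 2 carried more of this, with a median log2 fold change of 1.38 against 0.37 in clone 4. All 7 shared members that differed between the clones had risen further in clone 2. Without either clone 2 library the shared count was 7. KLF4 had 42.9 and 41.8 CPM in clone 2 and 13.1 and 12.5 CPM in clone 4, against 7.01, 6.82 and 3.81 CPM in parental cells. BTG2, an antiproliferative p53 target, had 49.5 and 50.4 CPM in clone 2 and 21.7 and 19.5 CPM in clone 4, against 9.24, 7.71 and 9.09 CPM in parental cells. In both genes the order was clone 2, clone 4, parental without overlap. FOS was called in opposite directions in the clones.

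Some genes that report on ERK activity also rose. Of 16 ERK feedback genes, 7 were higher and 1, EPHA4, was lower in both clones, and 5 to 9 were higher when single libraries were left out. SPRY4, an inhibitor of receptor tyrosine kinase signalling, had 8.87 and 7.32 CPM in clone 2 and 4.26 and 5.18 CPM in clone 4, against 0.495, 0.712 and 0.586 CPM in parental cells. ETV1 and ETV5, transcription factors induced by ERK, rose by 2.26 ± 0.28 and 2.21 ± 0.33 on the log2 scale. PHLDA1 rose by 1.38 ± 0.10. EPHA4, a receptor for ephrins, had 3.16 and 3.60 CPM in clone 2 and 6.59 and 7.43 CPM in clone 4, against 31.1, 30.5 and 24.5 CPM in parental cells.

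In the axis that palbociclib targets, the shares that moved together were 15.4% higher and 11.5% lower, beside 11.0% and 10.7% over all genes tested. Of 26 genes of the CDK4/6-RB axis, 4 were higher in both clones (CDK6, CDKN1A, CCNE1 and E2F3) and 3 were lower (RB1, RBL2 and TFDP1), 1 moved in opposite directions (CDKN2B), and 18 were called in at most 1 clone. The median log2 fold change was 0.14. RB1 and TFDP1 lie on chromosome 13, where more than 1 in 2 genes tested was lower in both clones.

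CDK6, a direct target of the drug, had 14.5 and 16.3 CPM in clone 2 and 5.98 and 6.93 CPM in clone 4, against 3.22, 2.19 and 3.66 CPM in parental cells. CCNE1, cyclin E1, which activates CDK2 to pass the G1/S boundary, had 22 and 27.0 CPM in clone 2 and 14.2 and 18.5 CPM in clone 4, against 6.44, 6.41 and 8.28 CPM in parental cells. The clone libraries lay above the parental ones in both, and the log2 fold changes were 1.74 ± 0.18 for CDK6 (edgeR adjusted p = 5.29e-06) and 1.51 ± 0.15 for CCNE1 (2.86e-06). CDKN1A, the CDK inhibitor p21, had 102 and 101 CPM in clone 2 and 47.3 and 43.6 CPM in clone 4, against 24.8, 26.3 and 24.1 CPM in parental cells. The 3 increases were each larger in clone 2. E2F3, an activating E2F, had 35.8 and 36.9 CPM in clone 2 and 41.5 and 45.2 CPM in clone 4, against 15.8, 16.4 and 25.2 CPM in parental cells.

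RB1 fell in both clones, but to very unlike levels, with 28.3 and 29.1 CPM in clone 2 and 0.137 and 0.250 CPM in clone 4, against 57.9, 49.6 and 58.0 CPM in parental cells. The log2 fold change was −0.94 ± 0.12 in clone 2 and −8.13 ± 0.25 in clone 4, so the mean of −4.53 stands for neither clone. TFDP1, the partner that E2F proteins need to bind DNA, had 82.7 and 79.0 CPM in clone 2 and 46.4 and 43.6 CPM in clone 4, against 166, 145 and 185 CPM in parental cells. RBL2, the RB1 relative p130, fell by 0.80 ± 0.09 on the log2 scale, but its shared call was lost without either clone 2 library and with scaling by library totals.

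Several central members showed no shared change. CDK4 had 190.0 and 183 CPM in clone 2 and 223 and 208 CPM in clone 4, against 245, 257 and 217 CPM in parental cells. Its difference was called on the mean (−0.26 ± 0.08, edgeR adjusted p = 0.0238) but not in each clone. CCND1, cyclin D1, had 273 and 266 CPM in clone 2 and 147 and 151 CPM in clone 4, against 153, 135 and 162 CPM in parental cells, so clone 2 stood apart while clone 4 lay within the parental range. CDK2 had log2 differences of −0.14 ± 0.12 in clone 2 and −0.20 ± 0.12 in clone 4. E2F1 was called in clone 4 (0.76 ± 0.11) and not in clone 2 (0.20 ± 0.11).

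In both proliferation lists 0% of genes were higher in both clones, beside 11.0% over all genes tested. The lower shares were 2.86% for DNA replication and 10% for G2/M, the second near the 10.7% over all genes tested. Of 35 genes of DNA replication and S phase, 0 were higher and 1, RRM2, was lower in both clones, and its call was lost without the second clone 4 or the first clone 2 library. Of this list, 2 were lower without the first clone 4 library and 3 without the second parental library, and 1 was higher without the first clone 4 or the third parental library or with scaling by library totals. Of 30 genes of G2/M and mitosis, 0 were higher and 3 (CENPF, NUSAP1 and PRC1) were lower in both clones, while 11 were called lower on the mean. The call of CENPF was lost in 6 of 12 alternative settings, among them library totals and leaving out either clone 2 library. Without the second parental library 5 were lower. MKI67, the proliferation marker Ki-67, had 147 and 145 CPM in clone 2 and 122 and 109 CPM in clone 4, against 141, 115 and 179 CPM in parental cells, and the groups overlapped. PRC1, which bundles microtubules in the mitotic midzone, had 123 and 125 CPM in clone 2 and 110.5 and 98.1 CPM in clone 4, against 206, 184 and 239 CPM in parental cells. NUSAP1 and PRC1 lie on chromosome 15, where many genes were lower.

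DNA repair is also named in the study's title. Of 31 genes of homologous recombination and the Fanconi pathway, 3 were higher (XRCC3, FANCM and FANCA) and 5 lower (among them BLM, FANCC, FANCF and FANCI) in both clones, with a median log2 fold change of 0.08. These shares, 9.68% higher and 16.1% lower, stand beside 11.0% and 10.7% over all genes tested. The call of FANCC was lost in 7 of 12 alternative settings and that of FANCA in 3. The lower count was 2 without the second clone 4 library, and 3 without the second clone 2 library or with scaling by library totals. XRCC3, which acts in recombination repair, had 59.9 and 61.6 CPM in clone 2 and 52.0 and 65.1 CPM in clone 4, against 30.7, 31.7 and 38.6 CPM in parental cells. FANCI, which is ubiquitinated together with FANCD2 at crosslinks, had 84.3 and 82.5 CPM in clone 2 and 93.4 and 94.8 CPM in clone 4, against 139, 127 and 164 CPM in parental cells. Neither gene's groups overlapped. XRCC3 and FANCM lie on chromosome 14, and BLM and FANCI on chromosome 15.

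BRCA1 and BRCA2 were outside the shared set. BRCA1 had 28.2 and 27.0 CPM in clone 2 and 41.4 and 33.1 CPM in clone 4, against 36.4, 33.5 and 41.0 CPM in parental cells, and BRCA2 had 8.62 and 7.79 CPM in clone 2 and 4.40 and 2.84 CPM in clone 4, against 9.65, 6.70 and 9.09 CPM in parental cells. Both libraries lay below the parental range in clone 2 but not in clone 4 for BRCA1, and in clone 4 but not in clone 2 for BRCA2.

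Of 39 genes of excision, mismatch and end-joining repair, 4 were higher (10.3%) and 10 lower (25.6%) in both clones, with a median log2 fold change of −0.11. The shares over all genes tested were 11.0% and 10.7%. Without the second clone 4 or the first clone 2 library 6 were lower, and without the first parental library 5 were. PARP2, which makes poly(ADP-ribose) at DNA breaks, had 38.7 and 34.7 CPM in clone 2 and 40.9 and 37.6 CPM in clone 4, against 16.1, 15.7 and 19.9 CPM in parental cells. APEX1, the abasic-site endonuclease, had 132 and 131 CPM in clone 2 and 143 and 142 CPM in clone 4, against 93.4, 94.5 and 71.8 CPM in parental cells. Both lie on chromosome 14, and their groups did not overlap. CUL4A, a ubiquitin ligase scaffold of nucleotide excision repair, had 64.3 and 59.9 CPM in clone 2 and 32.7 and 30.3 CPM in clone 4, against 108, 92.9 and 101 CPM in parental cells. CUL4A, ERCC5 and the end-joining ligase LIG4 lie on chromosome 13, and CETN2, a subunit of the XPC damage sensor, lies in a run of lower genes on the X chromosome.

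Estrogen receptor targets moved in both directions. Of 32, 6 were higher (TFF1, PDZK1, RET, KCNK5, FHL2 and MYC) and 8 lower (PGR, CXCL12, MYB, CA12, PKIB, RAB31, ADCY9 and IGF1R) in both clones, with a median log2 fold change of −0.0028. These were 18.75% and 25%, beside 11.0% and 10.7% over all genes tested, and 2 were called in opposite directions. CA12 and IGF1R lie on chromosome 15. ESR1, the receptor itself, had 88.4 and 95 CPM in clone 2 and 179 and 162 CPM in clone 4, against 183, 169 and 176 CPM in parental cells. Clone 2 had fallen (−0.94 ± 0.10 on the log2 scale), while clone 4 (−0.05 ± 0.10) was not called.

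RET, a receptor tyrosine kinase, had 10.1 and 9.03 CPM in clone 2 and 12.2 and 14.1 CPM in clone 4, against 2.97, 3.20 and 3.52 CPM in parental cells. MYB had 9.04 and 7.14 CPM in clone 2 and 11.6 and 9.6 CPM in clone 4, against 26.2, 22.5 and 16.3 CPM in parental cells. PGR, the progesterone receptor, had 215 and 231 CPM in clone 2 and 297 and 199 CPM in clone 4, against 535, 464 and 327 CPM in parental cells. The groups were separate in all 3 genes, but the gap in PGR was narrow and its shared call was lost without the second clone 4 library.

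Of 28 luminal identity genes, 1 was higher (3.57%) and 6 lower (21.4%) in both clones, with a median log2 fold change of −0.18. The shares over all genes tested were 11.0% and 10.7%. Without the second clone 4 library 3 were lower. KRT8, a keratin of luminal cells, had 2808 and 2677 CPM in clone 2 and 3296 and 3785 CPM in clone 4, against 5870.3, 6284 and 8451 CPM in parental cells, the largest loss in CPM of any shared gene named here. GATA3 and FOXA1, luminal transcription factors, had mean log2 differences of −0.03 ± 0.08 and −0.23 ± 0.08, neither was called in each clone, and the sign of GATA3 turned with scaling by library totals. The summed level of the luminal markers was 16790 to 17020 CPM in clone 2 and 17690 to 18120 CPM in clone 4, against 21380 to 23530 CPM in parental cells.

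Of 14 basal epithelial genes tested, 3 were higher (21.4%) and 1 lower (7.14%) in both clones, and 3 were called in opposite directions. Over all genes tested, 11.0% were higher and 10.7% lower in both clones. KRT15, a keratin of basal and progenitor cells, had 236 and 243 CPM in clone 2 and 161 and 241 CPM in clone 4, against 60.6, 71.8 and 109 CPM in parental cells. KRT5 was near the limit of detection, with 1 count over the parental libraries, and lost its call without the first clone 4 library. The summed level of the basal markers was 627 to 642 CPM in clone 2 and 385 to 455 CPM in clone 4, against 303 to 385 CPM in parental cells.

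More matrix genes rose than fell. Of 21 mesenchymal and matrix genes tested, 8 were higher and 1, THBS1, was lower in both clones, with a median log2 fold change of 1.27. The lower call of THBS1 was lost without the first clone 2 library, and 6 to 9 genes were higher when single libraries were left out. TIMP3, an inhibitor of matrix metalloproteinases, had 11.0 and 11.2 CPM in clone 2 and 12.6 and 14.4 CPM in clone 4, against 0.743, 0.534 and 0.586 CPM in parental cells. COL1A1, a chain of type I collagen, had 131 and 121 CPM in clone 2 and 71.4 and 104 CPM in clone 4, against 39.5, 41.6 and 41.3 CPM in parental cells. The rise was 4.30 ± 0.20 for TIMP3 and 1.36 ± 0.12 for COL1A1 on the log2 scale (edgeR adjusted p of 2.04e-09 and 8.51e-07), with no overlap between clone and parental libraries.

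Fibroblasts make the same matrix genes, so 14 fibroblast markers were read beside them. In all, 7 passed the filter and 2 were higher in both clones. Their summed level was 266.4 to 286.5 CPM in clone 2 and 85.8 to 114 CPM in clone 4, against 51.9 to 53.8 CPM in parental cells, while FAP, POSTN and DPT were at 0 in all 7 libraries. Of 12 endothelial markers 3 were tested and 1 was higher. Their sum was 35.0 to 35.9 CPM in clone 2 and 19.2 to 20.5 CPM in clone 4, against 26.5 to 33.7 CPM in parental cells, and PECAM1, TEK, EMCN and ERG were at 0 in all 7 libraries.

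Integrins, laminins and adhesion molecules went both ways, with 5 of 29 higher (17.2%) and 7 lower (24.1%) in both clones. Over all genes tested the shares were 11.0% and 10.7%. Another 4 of the list were called in opposite directions in the clones. The lower count was 2 without either clone 2 library. The higher count was 2 without the second clone 2 library. CD44, a hyaluronan receptor, had 21.5 and 22.7 CPM in clone 2 and 9.48 and 7.01 CPM in clone 4, against 4.95, 4.75 and 3.59 CPM in parental cells. ITGA2, a collagen-binding integrin chain, fell by 1.28 ± 0.13 on the log2 scale. The cell adhesion molecule ALCAM fell by 0.99 ± 0.11.

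Growth factor genes with a shared change included ligands, binding proteins and receptors. In the insulin-like growth factor axis, 4 of 12 genes were higher (IGF2, IGFBP3, IGFBP2 and INSR) and 2 lower (IGF1R and IRS2). These shares were 33.3% and 16.7%, beside 11.0% and 10.7% over all genes tested. IGF2 had 7.77 and 7.14 CPM in clone 2 and 22 and 18.9 CPM in clone 4, against 1.73, 1.48 and 2.35 CPM in parental cells. IGF1R, the receptor of IGF2 and a gene on chromosome 15, had 68.9 and 73.3 CPM in clone 2 and 53 and 48.7 CPM in clone 4, against 107, 103 and 108 CPM in parental cells. The ligand was thus higher and the receptor lower in every clone library than in any parental library. IGFBP2 lost its call without the first and INSR without the second clone 2 library. IRS2 lost its call without either clone 2 library, the second clone 4 library or the first or second parental library.

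In EGF and FGF signalling, 4 of 19 genes were higher (21.05%) and 3 lower (15.8%) in both clones. Over all genes tested the shares were 11.0% and 10.7%. Of this list, 1 was higher without either clone 2 library or the second parental library. ERRFI1, a feedback inhibitor of EGFR, had 67.8 and 67.3 CPM in clone 2 and 86.6 and 81.1 CPM in clone 4, against 26.7, 23.9 and 29.3 CPM in parental cells. FGFR3 had 34.1 and 33.0 CPM in clone 2 and 14.1 and 17.4 CPM in clone 4, against 47.6, 44.0 and 59.7 CPM in parental cells. FGFR1 was called higher in both, but its rise in clone 4 was 0.42 ± 0.14 on the log2 scale and the shared call was lost in 7 of 12 alternative settings, among them DESeq2 and leaving out either clone 2 library, the second clone 4 library, the second parental library or the third parental library.

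In TGF-beta and Wnt signalling, 7 of 36 genes were higher (19.4%) and 6 lower (16.7%) in both clones, beside 11.0% and 10.7% over all genes. Without either clone 2 library, or with scaling by library totals, 3 were lower. The Wnt ligands WNT4 and WNT5A rose by 2.35 ± 0.18 and 5.39 ± 0.15 on the log2 scale (edgeR adjusted p of 2.55e-07 and 1.22e-11). WNT4, a target of progesterone in the breast, had 16 and 17.8 CPM in clone 2 and 13.9 and 13.9 CPM in clone 4, against 2.23, 2.67 and 4.1 CPM in parental cells. TGFBR3, the coreceptor betaglycan, had 3.50 and 3.60 CPM in clone 2 and 4.46 and 4.34 CPM in clone 4, against 0.495, 0.356 and 0.440 CPM in parental cells. SKIL, a repressor of SMAD transcription, had 59.1 and 65.4 CPM in clone 2 and 67.0 and 53.8 CPM in clone 4, against 121, 115 and 121 CPM in parental cells. The clone 2 over clone 4 log2 differences of WNT4, TGFBR3 and SKIL were 0.28, −0.31 and 0.04 and did not pass the test, while that of WNT5A was −2.27 and did.

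Among the 25 genes that fell furthest in both clones, with a level of at least 2 log2 CPM, were membrane and cytoskeletal genes of varied function. PMP22, a membrane protein of epithelial junctions and myelin, had 0.341 and 0.354 CPM in clone 2 and 0.275 and 0.250 CPM in clone 4, against 98.2, 94.8 and 80.7 CPM in parental cells. DMD, which encodes dystrophin, had 4.27 and 4.25 CPM in clone 2 and 2.13 and 2.00 CPM in clone 4, against 69.2, 62.1 and 61.8 CPM in parental cells. KCNK2, a mechanosensitive potassium channel, had 6.06 and 6.90 CPM in clone 2 and 7.97 and 7.18 CPM in clone 4, against 122, 105 and 88.8 CPM in parental cells. The clone libraries of these genes held a small fraction of the parental level, with log2 fold changes of −8.19 ± 0.16, −4.43 ± 0.11 and −3.90 ± 0.12 (edgeR adjusted p of 1.12e-12, 4.1e-12 and 3.95e-11).

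The junction genes CLDN1 and GJA1 were lower in both clones, whereas another claudin, CLDN5, was called higher in both, a call lost in 5 of 12 alternative settings. CLDN1, a claudin of tight junctions, had 85.6 and 86.1 CPM in clone 2 and 189 and 174 CPM in clone 4, against 724, 676 and 871 CPM in parental cells. GJA1, the gap junction protein connexin 43, had 33.5 and 34.2 CPM in clone 2 and 47.8 and 36.4 CPM in clone 4, against 219, 172 and 127 CPM in parental cells. Neither overlapped with the parental range, and they fell by 2.6 ± 0.10 and 2.19 ± 0.16 on the log2 scale.

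GAS6, the ligand of the TAM receptor kinases and a gene on chromosome 13, had 33.5 and 32.2 CPM in clone 2 and 32.4 and 39.4 CPM in clone 4, against 204, 207 and 150.3 CPM in parental cells. The antisense gene GAS6-AS1 fell by a like amount, −2.47 ± 0.18 against −2.45 ± 0.12 for GAS6 on the log2 scale. Without a known strand setting their reads cannot be told apart. CALCR, the calcitonin receptor, had 9.90 and 9.85 CPM in clone 2 and 8.93 and 6.93 CPM in clone 4, against 43.3, 43.0 and 36.7 CPM in parental cells.

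Sterol synthesis genes fell in part. Of 24 genes of cholesterol synthesis, 0 were higher and 12 lower in both clones, and 16 were lower on the mean, with a median log2 fold change of −0.40. Without either clone 2 library the shared count was 6. Among the 12 were MVK, PMVK, IDI1, FDFT1, SQLE, LSS, NSDHL, HSD17B7 and DHCR7, with the sterol carrier STARD4 and the regulator SREBF2. NSDHL, an enzyme in the removal of methyl groups from sterol intermediates, had 18.8 and 18.1 CPM in clone 2 and 22.5 and 22.2 CPM in clone 4, against 85.8, 96.2 and 65.2 CPM in parental cells. It lies in the run of lower genes on the X chromosome. STARD4 had 19.5 and 19.5 CPM in clone 2 and 16.3 and 15.1 CPM in clone 4, against 41.0, 38.6 and 26.2 CPM in parental cells. In both genes all clone libraries were below all parental ones.

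Of 23 genes of fatty acid and lipid storage, 2 were higher (PPARGC1A and DGAT2) and 6 lower in both clones, and without the first parental library 3 were lower. The shares were 8.70% higher and 26.1% lower, beside 11.0% and 10.7% over all genes tested. SCD, the desaturase that makes monounsaturated fatty acids, had 184 and 179.6 CPM in clone 2 and 393 and 373 CPM in clone 4, against 887, 811 and 619 CPM in parental cells. SREBF1, its transcriptional regulator, had 118 and 115 CPM in clone 2 and 77.4 and 91.6 CPM in clone 4, against 175, 170.5 and 164 CPM in parental cells. Both fell without overlap, by 1.55 ± 0.11 and 0.78 ± 0.08 on the log2 scale. DGAT2, which makes triacylglycerol, rose by nearly the same amount in the clones, with 23 and 21.5 CPM in clone 2 and 22.7 and 22.1 CPM in clone 4, against 7.76, 6.94 and 5.86 CPM in parental cells.

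Of 30 genes of glycolysis and hypoxia, 1 was higher (3.33%) and 9 lower (30%) in both clones, with a median log2 fold change of −0.27. The shares over all genes tested were 11.0% and 10.7%. The lower count was 5 without the first and 3 without the second clone 2 library, and 5 with scaling by library totals. SLC16A3, a lactate exporter, had 24.7 and 19 CPM in clone 2 and 36.5 and 35.8 CPM in clone 4, against 78.5, 75.4 and 61.2 CPM in parental cells. TPI1, triosephosphate isomerase, fell by 0.47 ± 0.08 on the log2 scale (edgeR adjusted p = 0.000367). The single higher gene, VEGFA, lost its call without any one of the 4 clone libraries and in DESeq2.

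Nuclear genes of oxidative phosphorylation were lower in both clones for 9 of 35 and higher for 0, with 4 lower without either clone 2 library and 5 with scaling by library totals. The lower share was 25.7%, and over all genes tested 11.0% were higher and 10.7% lower in both clones. Of the 35, 20 were called in 1 clone only and 3 in opposite directions. The median log2 fold change of the list was −0.50 in clone 2 but −0.0003 in clone 4. UQCRC2, a core subunit of complex III, had 215 and 208 CPM in clone 2 and 151 and 124 CPM in clone 4, against 384, 332 and 336 CPM in parental cells. Mitochondrially encoded transcripts took 11.26 to 11.48% of the counts in clone 2 and 12.56 to 15.6% in clone 4, against 10.07 to 10.39% in parental cells. The mitochondrial ribosomal RNA MT-RNR2 rose by 0.91 ± 0.10 on the log2 scale. Of 30 genes of the small ribosomal subunit, 1 was lower in both clones (3.33%, below the 10.7% over all genes tested), 0 were higher and 6 moved in opposite directions.

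In the unfolded protein and integrated stress response, 1 of 26 genes was higher (DDIT4) and 6 were lower in both clones. These shares were 3.85% and 23.1%, beside 11.0% and 10.7% over all genes tested. The lower count was 2 without the second clone 4 or the second clone 2 library, and 13 without the third parental library. DNAJC3, a chaperone of the endoplasmic reticulum and a gene on chromosome 13, had 38.6 and 39.2 CPM in clone 2 and 28.7 and 27.8 CPM in clone 4, against 137, 138 and 86.9 CPM in parental cells. Of 30 lysosome and autophagy genes, 2 were higher (6.67%) and 4 lower (13.3%), beside 11.0% and 10.7% over all genes tested. A further 5 were called in opposite directions in the clones. CTSB, the protease cathepsin B, had 124 and 119 CPM in clone 2 and 117 and 102 CPM in clone 4, against 362, 360.2 and 304 CPM in parental cells. The membrane protein gene LAMP1, on chromosome 13, fell by 1.48 ± 0.09 on the log2 scale. TFEB, a transcription factor for lysosomal genes, rose by 1.14 ± 0.17.

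Among 26 apoptosis regulators, 9 were higher in both clones (BCL2L2, HRK, PMAIP1, BBC3, CASP1, CASP4, CASP8, TNFRSF10A and TNFRSF10B) and 3 lower (BIK, CASP9 and FAS). These shares were 34.6% higher and 11.5% lower, beside 11.0% and 10.7% over all genes tested, so the lower share was near that of all genes. The set that rose held both pro-death BH3-only genes and the survival gene BCL2L2, which lies on chromosome 14. Without the first clone 4 library 1 was lower. The call of CASP9 was lost in 10 of 12 alternative settings, among them DESeq2 and other scalings, and that of PMAIP1 in 7. CASP1, the inflammasome caspase, had 1.88 and 2.12 CPM in clone 2 and 1.65 and 1.25 CPM in clone 4, against 0.248, 0.356 and 0.293 CPM in parental cells. FAS, a death receptor, had 16 and 17.6 CPM in clone 2 and 10.4 and 9.43 CPM in clone 4, against 26.6, 25.6 and 38.1 CPM in parental cells. Of 25 p53 targets, 5 were higher (20%) and 2, FAS and XPC, lower (8%) in both clones. Over all genes tested the shares were 11.0% and 10.7%. A further 3 p53 targets were called in opposite directions in the clones.

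For drug transport and detoxification, 6 of 22 genes were higher (ABCC3, CYP1A1, CYP1B1, NQO1, ALDH1A1 and HMOX1) and 3 lower (ABCA3, ABCC5 and GSTP1) in both clones, with a median log2 fold change of 0.40. The shares were 27.3% higher and 13.6% lower, beside 11.0% and 10.7% over all genes tested. CYP1B1, a cytochrome that oxidises estrogens, had 289 and 318 CPM in clone 2 and 176 and 164 CPM in clone 4, against 71.1, 55.0 and 103 CPM in parental cells. ABCC5, an exporter of cyclic nucleotides, had 133 and 133 CPM in clone 2 and 169 and 181 CPM in clone 4, against 308, 362 and 277 CPM in parental cells. ALDH1A1 and GSTP1, both at low levels, lost their calls without the first clone 2 library, and GSTP1 also without the second, without the first clone 4 library and in DESeq2.

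**Figure D3:**
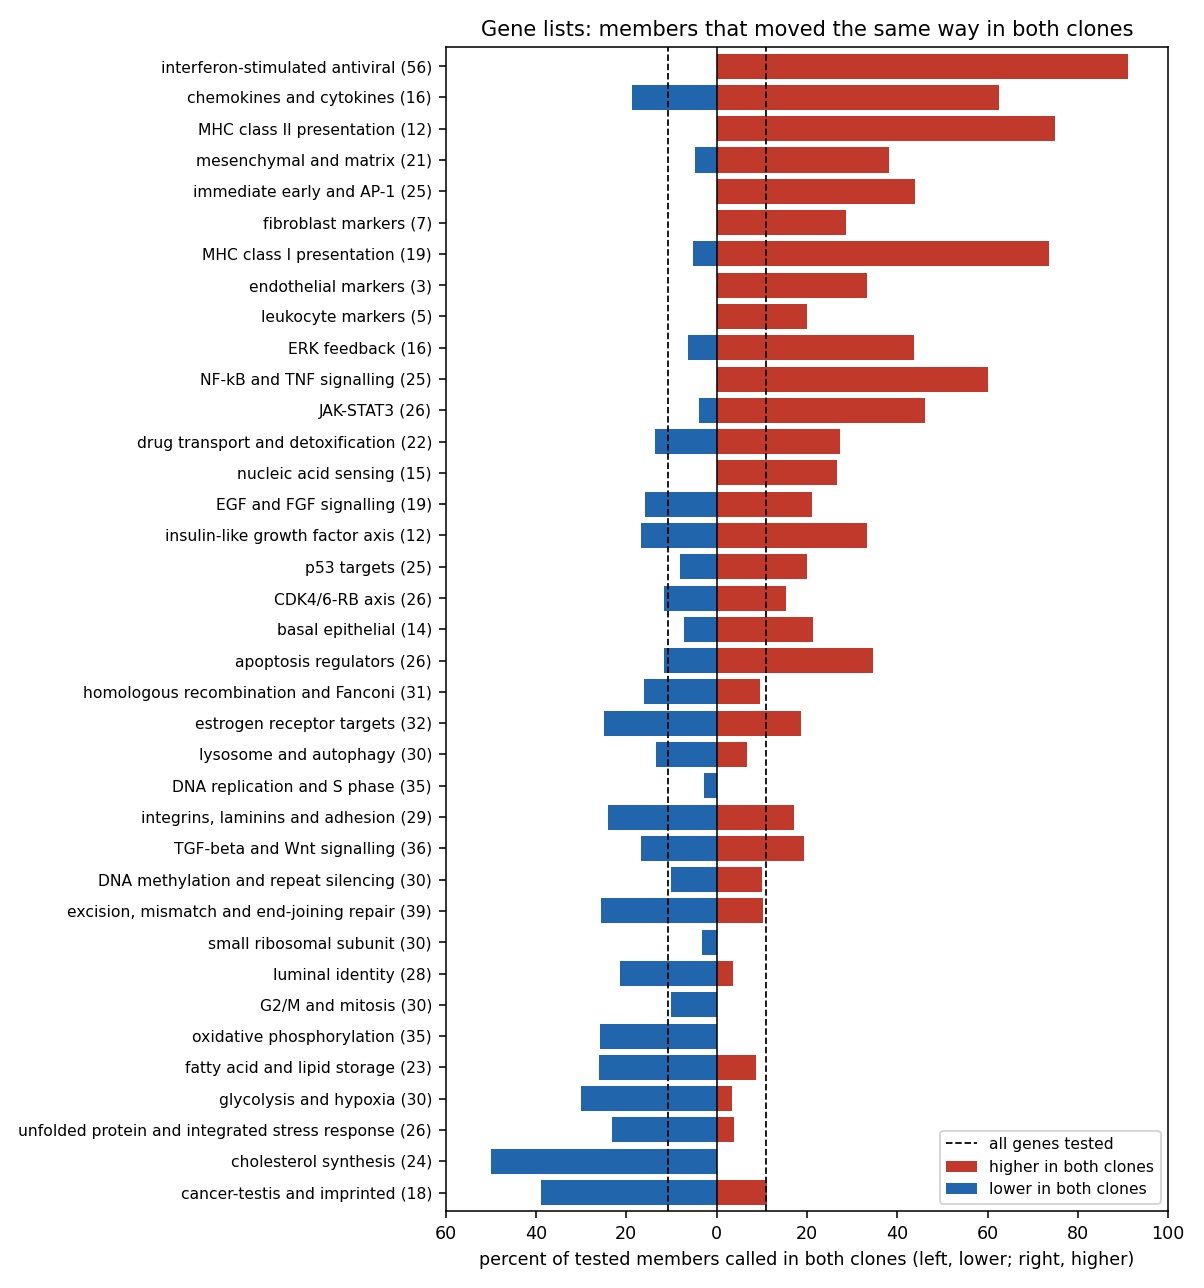
Share of the tested members of each of 37 gene lists called higher (right) or lower (left) in both clones, with the number tested in brackets and lists ordered by median log2 fold change. Dashed lines give the shares over all genes tested, 11.0% and 10.7%, and the interferon list stands at 51 of 56 higher and 0 lower.

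Some genes were nearly silent on one side of the comparison. By counts, 24 genes had at most 3 counts over the parental libraries and at least 10 in each clone library, and 7 had at most 3 counts over the clone libraries and at least 10 in each parental library. IFI44L, an interferon-stimulated gene, had 0 counts in the parental libraries and, set against a floor of 3 counts for that group, its rise was at least 177-fold in clone 2 and at least 48.7-fold in clone 4. FMOD, a collagen-binding proteoglycan, had 1 parental count, with ratios of 399.9 in clone 2 (exact 95% interval 71.2 to 15850) and 133 in clone 4 (23.3 to 5328). PDE9A, a cyclic GMP phosphodiesterase, likewise had ratios of 174 in clone 2 (30.6 to 6929) and 215 in clone 4 (38.0 to 8564).

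On the silent side, RIPK3, the kinase that starts necroptosis, had 0 counts in all 4 clone libraries, against 1.49, 1.42 and 1.25 CPM in parental cells. The drop was at least 13.2-fold in clone 2 and at least 12.2-fold in clone 4. FZD6, a Wnt receptor, was at 0 counts in clone 2 and at 1 count in clone 4, against a total of 244 counts in parental cells. The drop was at least 54.7-fold in clone 2, and the ratio of parental cells to clone 4 was 152 (27.0 to 6025). PKIA, an inhibitor of protein kinase A, had 0 counts in clone 2 and 5.84 and 5.59 CPM in clone 4, against 158, 141 and 141 CPM in parental cells. It was at least 1392-fold lower in clone 2.

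Cancer-testis genes, normally restricted to germ cells, and imprinted genes formed 1 list. Of 18 tested, 7 were lower in both clones (the cancer-testis genes MAGEA3, MAGEA6, MAGEA10, MAGEA12, CSAG1 and SSX1 and the imprinted gene NDN), and 7 were lower when any single library was left out. The cancer-testis gene PRAME and the imprinted gene IGF2 were higher, 3 genes (MAGEA1, GAGE1 and H19) were called in opposite directions, and 6 were called in at most 1 clone. MAGEA12 had 0.683 and 0.531 CPM in clone 2 and 0.0687 and 0.0835 CPM in clone 4, against 37.9, 34.2 and 39.3 CPM in parental cells. MAGEA3 had 0.341 and 0.354 CPM in clone 2 and 0 counts in clone 4, against 10.7, 9.67 and 11.2 CPM in parental cells. Reads of near-identical MAGEA copies may have been split by the counting, so the members are not independent of one another. Of 30 genes of DNA methylation and repeat silencing, 3 were higher and 3 lower in both clones, 10% each, near the 11.0% and 10.7% over all genes tested, and 1 was lower without the second clone 4 library or either clone 2 library. DNMT3A, a DNA methyltransferase that sets new marks, had 8.45 and 7.43 CPM in clone 2 and 6.94 and 8.51 CPM in clone 4, against 2.31, 3.62 and 3.74 CPM in parental cells, without overlap.

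The shared genes were spread unevenly over the chromosomes, a pattern noticed in the values and therefore given without a test. Of 16881 genes that could be placed on a chromosome by their Ensembl identifier, 11.05% were higher and 10.78% lower in both clones. On chromosome 13, 134 of 243 genes (55.1%) were lower and 3 higher, and the median log2 fold change was −0.53 in clone 2 and −1.15 in clone 4. On chromosome 15, 167 of 567 (29.45%) were lower and 33 higher, with medians of −0.22 in clone 2 and −0.49 in clone 4. Chromosome 14 went the other way, with 233 of 582 (40.03%) higher and 8 lower and medians of 0.46 in clone 2 and 0.50 in clone 4.

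Chromosome 13 held 1.44% of the genes placed and 7.36% of those lower in both clones. Chromosome 14 held 3.45% of the genes placed and 12.5% of those higher. Outside chromosomes 13 to 15, 10.3% of 15489 genes were higher and 9.76% lower. These pooled shares were not even either. The lower share was 20.9% on the X chromosome, 17.85% on chromosome 3 and 17.5% on chromosome 9. The higher share was 18% on chromosome 7 and 16.8% on chromosome 22. Without single libraries, 95 to 137 genes of chromosome 13 were lower, 163 to 230 of chromosome 14 were higher and 107 to 171 of chromosome 15 were lower, and the lowest count on chromosome 15 was the one without the first clone 2 library. Whether these shares follow gene copy number was not tested, since the files hold RNA counts only.

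**Figure D4:**
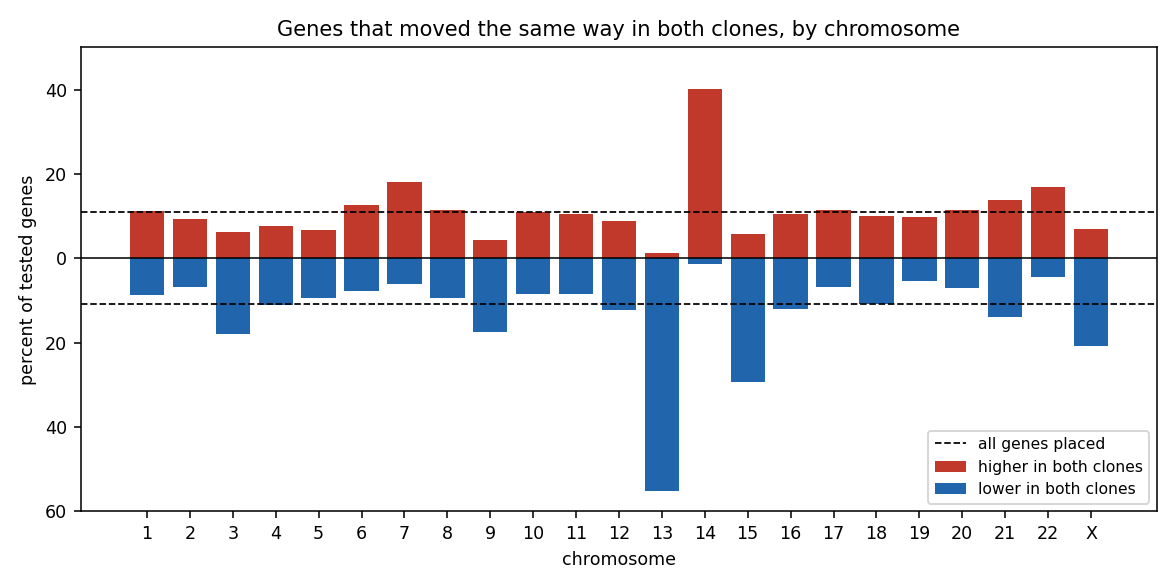
Percent of genes on each chromosome called higher (upward) or lower (downward) in both clones, with dashed lines at the shares over all 16881 genes placed. Chromosome 13 reaches 55.1% lower and chromosome 14 reaches 40.03% higher.

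Within these chromosomes the changes ran over neighbouring genes. The longest unbroken run of neighbours tested lay on the X chromosome, where 14 protein-coding genes from MTMR1 to ZNF185 were all lower in both clones, and their median log2 fold change was −2.66 in clone 2 and −3.06 in clone 4. It held MAGEA10, MAGEA3, MAGEA12, MAGEA6 and CSAG1 together with genes of other function, among them the sterol gene NSDHL and the centrin CETN2. On chromosome 13, runs of 13, 12 and 10 lower genes spanned PCID2 to CHAMP1, ARGLU1 to TUBGCP3 and RAP2A to PCCA. The first holds CUL4A, LAMP1, TFDP1 and GAS6, and the second LIG4 and IRS2.

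On chromosome 14, 8 neighbours from DCAF11 to REC8 were higher, with medians of 1.60 in clone 2 and 1.87 in clone 4, and these include the interferon-related IRF9, PSME1 and PSME2. Another run of 8, from TTC5 to PNP, holds the repair genes PARP2 and APEX1. Divided into 518 blocks of 25 neighbouring genes, the genome had 21 blocks with at least 40% of genes lower in both clones, of which 6 lay on chromosome 13, 6 on chromosome 15 and 9 elsewhere. In 13 blocks at least 40% of genes were higher, and 8 of these lay on chromosome 14.

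**Figure D5:**
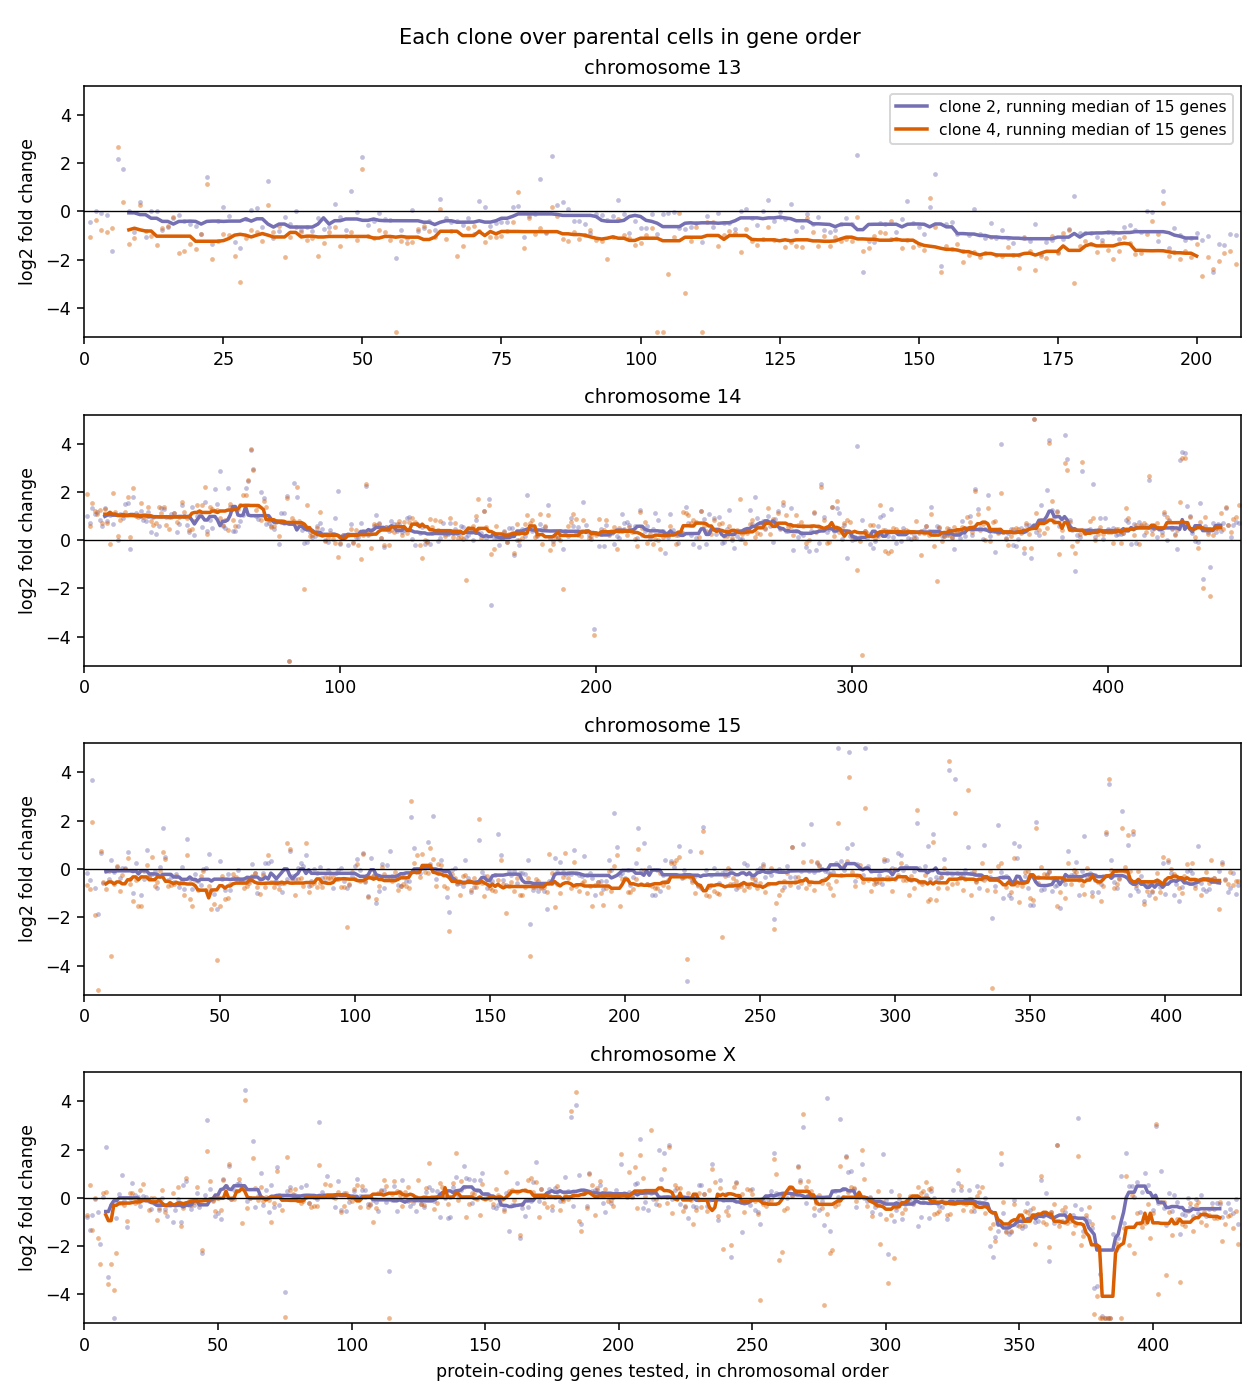
Log2 fold change over parental cells of protein-coding genes in their order along chromosomes 13, 14, 15 and X, with points for genes, clipped at −5 and 5, and lines for the running median of 15 genes in clone 2 and clone 4. In both clones the lines lie below 0 along most of chromosome 13, above 0 along most of chromosome 14, and drop near the end of the X chromosome.

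The libraries held 10997625 and 15677914 counts in clone 2, 14739350 and 12593774 in clone 4, and 12436758 to 17524621 in parental cells. Correlations of log2 CPM between libraries were 0.987 to 0.994 within groups and 0.934 to 0.963 between groups. The clone 2 libraries were the closest to each other, with a chi-square per degree of freedom of 1.30, against 8.28 in clone 4 and 3.66 to 10.7 in parental cells. They differed by more than counting error alone and were counted as 2 samples, as labelled, but these values do not show that they came from separate cultures. With clone 2 represented by its second or its first library alone, 1327 or 1297 genes were higher and 1211 or 1140 lower in both clones. CPM values are not corrected for gene length, and no level was compared between genes.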

How the data were processed

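RNA-seq was done on 7 libraries of T47D cells. The authors deposited whole-number read counts for each Ensembl gene, without normalization, used as they stood. FastQC, CASAVA, STAR and the hg19 build are named in the submitters' processing notes, while the counter, gene annotation and strandedness are not given in the sources at hand. Of the 63677 genes in the table, 6724 had no name, taking up to 1.41% of counts.

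Genes passing filterByExpr (minimum count 10) numbered 17502. edgeR 4.0.16 in R 4.3.3 fitted TMM-scaled counts with a robust quasi-likelihood model of 3 group means (limma 3.58.1, common biological coefficient of variation 0.0997). Contrasts were the mean of both clones over parental, each clone over parental, and clone 2 over clone 4, and a call required a p below 0.05 after Benjamini-Hochberg adjustment across the genes tested. SE is that of the log2 fold change, derived from the quasi-F value. Levels are TMM-scaled CPM. With a group at 0 counts a fold is a lower bound from a floor of 3 counts, and with 1 to 3 counts it is a ratio with an exact 95% interval, both covering counting error only. The test was checked on simulated data.

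Alternatives were other scalings and filters, DESeq2 1.42.0, a test against a fold of 1.5, a replicate block, and leaving out each library. Same-numbered libraries deviated together with correlations of −0.08 to 0.19. With 2 libraries per clone this check cannot exclude that numbers paired the samples, and the main test fitted no pairing. The 37 lists and the members were chosen with earlier results of these data known. Named genes were, of the shared set, those with the largest change in both clones, the largest gains and losses in CPM, and those near 0 on one side. Also named were up to 4 per list and direction, shared genes with the most extreme clone 2 over clone 4 differences, and a list of fixed genes. Chromosomes and gene order came from GENCODE by Ensembl identifier, without coordinates, and promoter windows from RefSeq (GRCh38.p14).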

Additional observations from a re-analysis of the deposited data

Results flagged for a closer look

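The shared genes listed here moved in the same direction in both clones but differed in size between clone 2 and clone 4 beyond 2-fold, in edgeR's test against that fold, an alternative chosen after the data were seen. Only named genes were considered, and not all shared genes. Some named genes had been picked for the most extreme differences between the clones, so their presence here is largely fixed by that choice. Values are clone 2 over clone 4 log2 differences. No explanation was weighed, and chance was not assessed for the set.

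Among genes higher in both clones, the rise was larger in clone 4 for WNT5A (−2.27), CXCL13 (−2.16) and SAA1 (−1.95), a Wnt ligand, a chemokine and an acute-phase protein. It was larger in clone 2 for KLF4 (1.72), ABCC3 (1.74), HLA-DRA (1.78), IFI44L (1.88), PDZK1 (2.12), HLA-DQA1 (2.38), CYP1A1 (3.65) and TNC (4.49). TNC, the matrix protein tenascin C, had 29 and 28.4 CPM in clone 2 and 1.65 and 0.835 CPM in clone 4, against 0.330, 0.237 and 0.440 CPM in parental cells, and lost its call in clone 4 without the first clone 4 library. CYP1A1, a cytochrome induced through the aryl hydrocarbon receptor, had 12.5 and 12.4 CPM in clone 2 and 0.824 and 1.17 CPM in clone 4, against 0.165, 0.0593 and 0.293 CPM in parental cells.

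Among genes lower in both clones, the fall was larger in clone 2 for PKIA (−9.32), SATB1-AS1 (−2.11) and ZC2HC1A (−1.92). It was larger in clone 4 for PTGES (2.13), CAB39L (2.65), SUSD3 (2.96), CD36 (4.04), RB1 (7.18), LDHB (7.76) and NDN (10.2). PKIA was at 0 counts in clone 2 and NDN at 0 counts in clone 4, so these 2 fitted differences depend on the prior count and are no bounds. LDHB, a lactate dehydrogenase subunit, had 52.9 and 49.3 CPM in clone 2 and 0.137 and 0.334 CPM in clone 4, against 70.1, 65.2 and 75.4 CPM in parental cells, and its call in clone 2 was lost without the second clone 2 library. CD36, a fatty acid transporter, had 27.1 and 28 CPM in clone 2 and 1.37 and 2.00 CPM in clone 4, against 40.5, 39.6 and 46.5 CPM in parental cells.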

How the results depend on the processing

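In edgeR, a test against a fold of 1.5 left 1236 genes higher and 819 lower on the mean, 684 higher and 350 lower in both clones, 15 called in opposite directions, and 60 and 68 shared genes that differed in size, further in clone 2 and in clone 4. With both clones as 1 resistant group, 1998 genes were higher and 1749 lower. A replicate block, a pairing that the check of numbers could not decide, gave 706 shared genes that moved further in clone 2 and 2181 higher and 2213 lower in both clones. DESeq2 called 1520 higher and 1684 lower in both clones, and 3169 of these 3204 were also in edgeR's set. Leaving out single libraries gave 2933 to 3816 genes higher and 3231 to 4216 lower on the mean, and in both clones 1297 to 1958 higher and 1140 to 2110 lower, of which 1211 without the first and 1140 without the second clone 2 library. It also gave 161 to 496 genes in opposite directions, 193 to 642 shared genes further in clone 2 and 198 to 722 further in clone 4. Of the named genes, 3 without a shared change reversed sign on the mean. CCNE2 ranged from −0.05745 (without the second parental library) to 0.2361 and was −0.004628 without the first. GATA3 was 0.04518 with library totals. MKI67 was 0.02309 with the replicate block and ranged from −0.3062 to 0.01089 without single libraries. The cause was not tested. Groups of 2 and 3 libraries limit the precision, and genes near 0 counts carry wide intervals.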
